A study of Homo sapiens with 18 samples.

Results

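The results describe what 1 more day of culture did to HK-2 cells kept in plain medium. HK-2 is an immortalized line of human renal proximal tubular epithelial cells, used in kidney toxicology. The members were 6 of the 18 arrays of the series, namely the 3 labelled as medium controls at 48 h and the 3 at 24 h, paired by replicate number. The series holds control treatments only, in 6 groups of 3 biological replicates, with medium, DMSO or ethanol for 24 h or 48 h. Text on the series as a whole names 12 h for the shorter time, and the sample labels, which say 24 h, were used. All groups shared the same base. The cells grew in DMEM and Ham's F12 with 5 mM glucose. The medium held insulin and transferrin, each at 5 µg/ml, 5 ng/ml selenite, the growth factor EGF at 10 ng/ml and the steroid hydrocortisone at 36 ng/ml, plus antibiotics, and the labels list no serum. They were seeded into 2 ml of medium 24 h earlier and were near 90% confluency when the control period began. No test compound was applied in these groups, and the line is 1 immortalized culture, so replicates are cultures and not donors. The doses of DMSO and ethanol are not given in the sources used here.

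As background, an epithelial culture that closes its monolayer passes from a spreading, dividing state to a quieter one. Contact between neighbours, spent growth factors and consumed glucose can each lower the expression of genes for DNA synthesis and mitosis. Genes for the actin cytoskeleton and for wound matrix are known to be high in spreading cells, while junctions, basement membrane and transporters belong to the settled epithelium. Genes of mitosis and of DNA replication form separate waves of the cell cycle. The mitotic wave is set at promoters with a cell cycle homology region (CHR) beside CCAAT boxes, and the replication wave at promoters with sites for E2F factors.

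RNA was measured on Affymetrix HG-U133 Plus 2.0 arrays, and values are log2 expression after GCRMA. Of the genes on the array, 10832 were tested. The 18 arrays had alike signal, with medians of 2.86 to 2.95 and 39.7% to 40.3% of probe sets above a log2 value of 4, under which a probe set is near background. The difference between 3' and 5' probe sets of beta-actin, a sign of RNA quality, was 0.85 ± 0.18 at 24 h and 0.90 ± 0.23 at 48 h (SD, n = 3; two-sided exact permutation p = 0.7). The control probe set for the 5' end of 18S ribosomal RNA was higher at 48 h, at 7.94, 8.03 and 9.12 against 7.48 to 7.59 at 24 h. Its exact permutation p of 0.1 is the smallest that 3 against 3 arrays allow, and its part in the results was not tested.

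From 24 h to 48 h many genes moved by modest amounts and a few by more than 8-fold. The change in medium was tested in 1 fit of the 12 medium and DMSO arrays, with the replicate number as a block. A gene is said here to have risen or fallen where its adjusted p was under 0.05 with limma and Benjamini-Hochberg adjustment over all genes tested. By that rule 3227 genes passed (29.8% of those tested), with 1357 higher at 48 h (12.5%) and 1870 lower (17.3%). The median size of the change among them was 0.40 on the log2 scale, and 147 genes (1.36%) moved at least 2-fold, 85 up and 62 down. In 3215 of the 3227 genes all 3 replicate pairs moved in the direction of the call, and in 2009 the arrays of the 2 times did not overlap. Over all genes tested, 2884 (26.6%) had no overlap between the times, and the median difference was -0.02. RNA came from whole wells, so fewer cells of a kind and less RNA per cell cannot be told apart. The calls rest on the pairing: without the replicate number in the fit 148 genes passed, and in a fit of all 18 arrays without it none did, while 1205 had an unadjusted p under 0.05. With only the 6 medium arrays and the replicate number in the fit, 1925 genes passed. Leaving out every array of replicate 1, 2 or 3 left 1375, 1846 and 1644 genes.

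**Figure D1:**
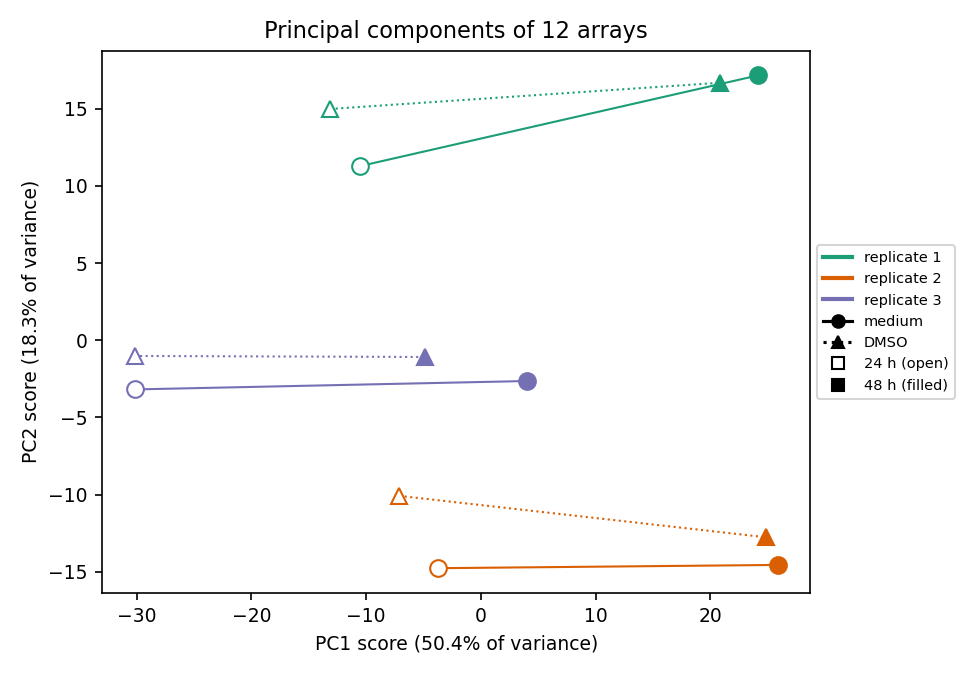
Scores of the 12 medium and DMSO arrays on the first 2 principal components over the genes tested, with the share of variance on each axis; colour gives the replicate number, shape the treatment, open symbols 24 h, filled symbols 48 h, and lines join arrays of the same number. Every line runs to the right from 24 h to 48 h, and replicate 3 lies to the left of the other two at both times.

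The plot of principal components shows how the arrays lay. The first component held 50.4% of the variance of the 12 medium and DMSO arrays. The medium arrays scored -10.5, -3.7 and -30.1 at 24 h in replicates 1, 2 and 3, and 24.2, 25.9 and 4.0 at 48 h. Each replicate moved toward higher scores, but replicate 3 started lower, and its 48 h array lay closer on this component to the 24 h array of replicate 2 than to the other 48 h arrays. The numbers were separated on the second component, with 18.3% of the variance. Differences below are between means of the medium arrays, where n is 3 arrays at each time. Their standard errors are from the fit of the 12 arrays, so the DMSO arrays also set the spread. Of 228 genes that passed and were named by rule, 127 kept their call in each of 9 fits that left out 1 medium array or all arrays of 1 replicate number. Genes said to have risen or fallen below are among those 127 unless an exception is stated. Counts for gene lists stand against the shares of all genes tested, of which 12.5% rose and 17.3% fell, and a list near those shares shows nothing particular to its members.

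The 4 largest falls were those of TXNIP, SLN, MMP1 and TNFAIP6. TXNIP, which encodes an arrestin-like protein that binds thioredoxin and whose transcription follows glucose, was at 9.40, 9.85 and 9.16 at 24 h and at 4.36, 6.72 and 7.23 at 48 h. All 48 h arrays lay below all 24 h arrays, replicate 1 by the most, and the difference was -3.37 ± 0.67 (adjusted p = 0.00592), a 10.3-fold lower level. Without replicate 1 it was -2.53 with an adjusted p of 0.0848. SLN, which encodes sarcolipin, a small inhibitor of the sarcoplasmic calcium pump, went from 8.24, 7.37 and 8.80 to 4.88, 3.68 and 6.46. Its groups did not overlap although replicate 3 was highest at both times, and it fell by 3.13 ± 0.32. MMP1, the interstitial collagenase, was at 7.40, 7.30 and 7.52 and then at 2.72, 5.06 and 5.33, a change of -3.04 ± 0.41. The 24 h arrays were tight, and at 48 h replicate 1 was at background level. TNFAIP6, which encodes a hyaluronan-binding protein of inflammation and repair, was at 5.12, 5.42 and 6.85 and then near background at 2.88, 2.89 and 3.00 (-2.87 ± 0.29).

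Other large falls included those of the ligand gene INHBA and the cytoskeletal gene TAGLN. INHBA, which encodes the activin A subunit, went from 6.67, 7.16 and 7.33 to 4.49, 4.39 and 4.91, a fall of 2.46 ± 0.21 with an adjusted p of 0.00018. TAGLN, the actin-binding transgelin, was scattered at 24 h at 7.21, 4.39 and 5.72 and lay at 3.09, 3.18 and 3.61 at 48 h (-2.48 ± 0.47). Its call was lost without replicate 3, with an adjusted p of 0.0529. TAGLN and TNFAIP6 lay under 4 on every 48 h medium array, so they entered the test only through arrays where they were high, and the sizes of their falls are approximate. The neuropeptide gene GAL fell by 2.15 ± 0.24, the tetraspanin-like TM4SF4 by 2.03 ± 0.29 and the long noncoding RNA LINC00973 by 2.29 ± 0.24. DPYSL3, a cytoskeletal regulator, fell by 1.73 ± 0.17, SMTN, which encodes smoothelin, by 1.49 ± 0.18, and DDIAS, linked to survival after DNA damage, by 1.58 ± 0.11. THBS1, the matrix protein thrombospondin 1, was at 9.23, 8.49 and 8.95 and then at 7.54, 7.38 and 7.29 (-1.49 ± 0.21). CCL20 and MARCHF3 were lower by 1.46 and 1.40, and both lost their call in most fits that left out arrays, CCL20 without 24 h replicate 1 or 3, 48 h replicate 2 or 3, or number 2 or 3, and MARCHF3 without 24 h or 48 h replicate 2 or 3, or number 1 or 2.

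**Figure D2:**
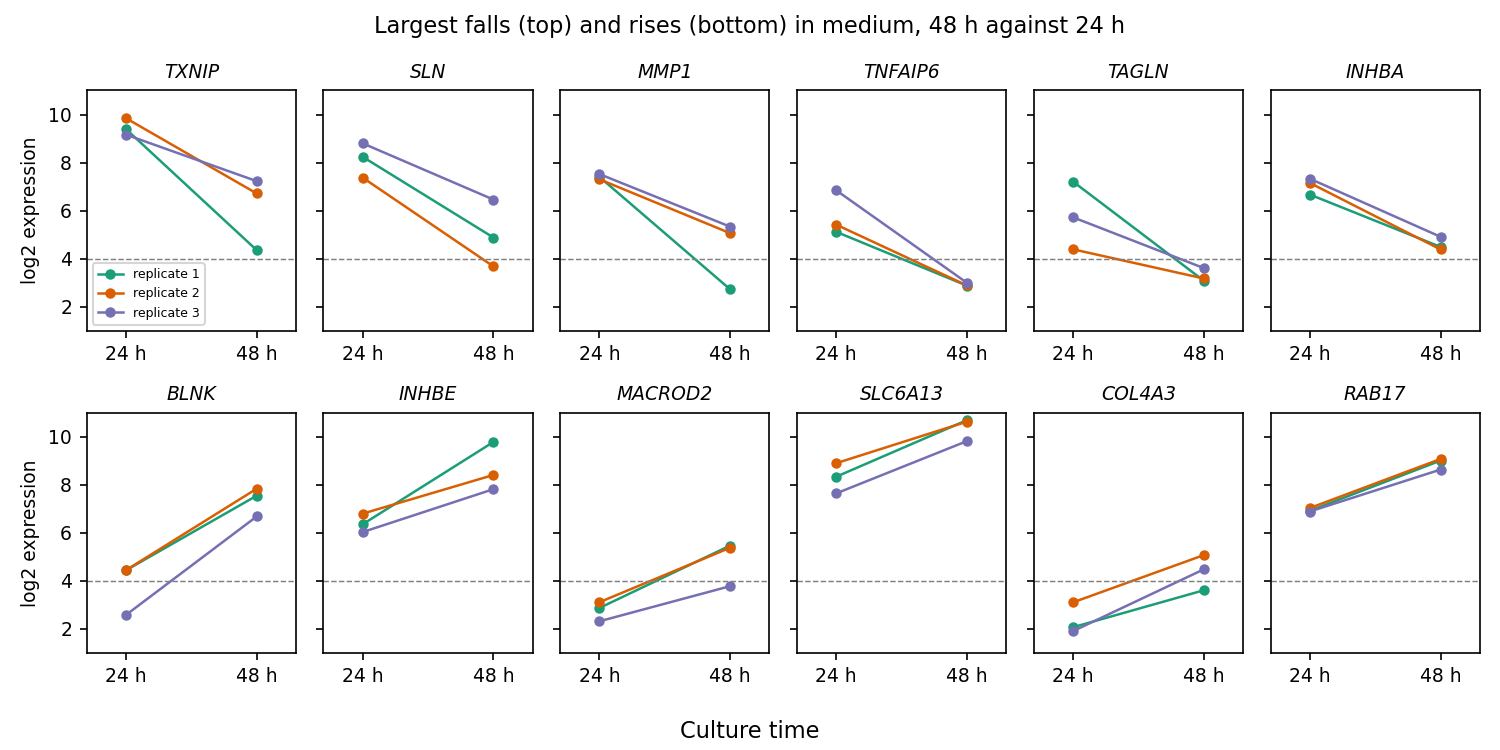
Log2 expression of the 6 genes with the largest falls (top) and the 6 with the largest rises (bottom) in medium at 24 h and 48 h; each line is a replicate and the dashed line at 4 marks the level under which a probe set is near background. All lines in a panel run the same way. TNFAIP6 and TAGLN at 48 h and COL4A3 and MACROD2 at 24 h lie under the dashed line on all 3 arrays.

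The largest rises were in an adaptor gene, a transporter, a basement membrane chain and a trafficking gene. BLNK, which encodes an adaptor best known from B cell receptor signalling, was at 4.44, 4.44 and 2.58 at 24 h and at 7.54, 7.83 and 6.68 at 48 h. Replicate 3 was lowest at both times, the groups did not overlap, and the difference was 3.53 ± 0.26 (adjusted p = 0.000156), from a 24 h mean near background. SLC6A13, the GABA and taurine transporter GAT2 of proximal tubules, went from 8.33, 8.90 and 7.64 to 10.69, 10.62 and 9.81, a 4.25-fold higher level (2.09 ± 0.14). RAB17, an epithelial small GTPase of polarized membrane traffic, went from 6.91, 7.03 and 6.88 to 9.00, 9.07 and 8.63. Its spread at each time was small and it rose by 1.96 ± 0.10. INHBE, which encodes the activin E subunit, was at 6.35, 6.80 and 6.03 and then at 9.78, 8.41 and 7.81 (2.27 ± 0.33). So the subunit genes INHBA and INHBE moved in opposite directions in every pair.

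COL4A3, a collagen IV chain of mature renal basement membranes, was at background at 24 h with 2.07, 3.10 and 1.91 and reached 3.61, 5.07 and 4.48 (2.02 ± 0.20). MACROD2, an ADP-ribosylhydrolase gene, also started at background, at 2.87, 3.11 and 2.32, and reached 5.47, 5.38 and 3.78 (2.11 ± 0.30). Both lay under 4 on every 24 h medium array, so they entered the test only through arrays where they were high. The phospholipase gene PLA1A rose by 1.71 ± 0.07 and TFCP2L1, a transcription factor of kidney epithelium, by 1.68 ± 0.14. The choline transporter-like gene SLC44A5 rose by 1.64 ± 0.15, SPRY1, a feedback inhibitor of receptor tyrosine kinases, by 1.64 ± 0.24, and the guidance receptor ROBO2 by 1.61 ± 0.20. KRT20, a keratin of intestinal and urothelial surface cells, rose by 1.56 ± 0.25. MOB3B and PAIP2B were higher by 1.70 ± 0.36 and 1.54 ± 0.30, and both lost their call without replicate 1, with adjusted p-values of 0.0741 and 0.0899. Of the 147 genes with at least a 2-fold change, 19 had a group mean under 4, where signal near background makes the size of a change approximate.

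Mitosis genes fell together. All 34 genes of the mitosis list were tested and all 34 fell, with a median of -0.62, against 17.3% of all genes and a median of -0.02. The medians in replicate pairs 1, 2 and 3 were -0.65, -0.53 and -0.61. The list kept 30 to 34 falls when 1 array or 1 replicate number was left out, and 9 without the replicate block. CDC20, an activator of the anaphase-promoting complex, was at 11.47, 11.29 and 11.94 and then at 10.61, 10.36 and 10.88. No array of one time overlapped the other, and the difference was -0.95 ± 0.08. AURKB, the kinase of the chromosomal passenger complex, went from 9.67, 9.47 and 10.05 to 8.88, 8.62 and 9.22 (-0.83 ± 0.06). CCNA2, which encodes cyclin A2, went from 10.82, 10.93 and 11.19 to 9.95, 10.06 and 10.36 (-0.85 ± 0.07). The spindle kinases AURKA and TTK fell by 0.69 ± 0.05 and 0.65 ± 0.05, the depolymerizing kinesin KIF2C by 0.63 ± 0.06, and the proliferation marker MKI67 by 0.64 ± 0.07. These levels stayed high: MKI67 was still at 10.86 ± 0.14 (SD, n = 3) at 48 h.

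The promoters of 4 mitosis genes are shown because their letters hold both motifs of that wave. They are the 4 with the smallest p-values in the list among genes with 1 promoter in the RefSeq table (GRCh38.p14) whose 150 bases before the start hold a CHR and a CCAAT box. Capitals mark the CHR (TTTGAA or TTCGAA) and the CCAAT box (CCAAT), on either strand. The stretches lie at chr1:43358831-43358980 on the plus strand for CDC20, chr2:26785906-26786055 on the plus strand for CENPA, chr14:55191586-55191735 on the minus strand for DLGAP5 and chr10:128126424-128126573 on the minus strand for MKI67. Each reads 5' to 3' up to the base before the start.
CDC20: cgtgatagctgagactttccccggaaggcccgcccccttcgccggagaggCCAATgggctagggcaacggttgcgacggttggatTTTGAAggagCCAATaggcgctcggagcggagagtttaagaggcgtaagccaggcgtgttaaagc
CENPA: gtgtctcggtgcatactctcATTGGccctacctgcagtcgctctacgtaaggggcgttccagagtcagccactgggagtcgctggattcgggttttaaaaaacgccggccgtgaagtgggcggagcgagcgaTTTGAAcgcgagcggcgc
DLGAP5: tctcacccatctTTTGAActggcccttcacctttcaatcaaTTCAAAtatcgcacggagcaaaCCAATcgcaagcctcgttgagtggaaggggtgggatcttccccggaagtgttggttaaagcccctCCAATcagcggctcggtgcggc
MKI67: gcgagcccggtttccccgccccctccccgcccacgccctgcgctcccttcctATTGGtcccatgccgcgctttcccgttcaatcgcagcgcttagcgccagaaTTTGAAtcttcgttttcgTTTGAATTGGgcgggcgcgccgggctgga
In CDC20 the CHR begins 65 bases before the start, between CCAAT boxes at 100 and 55. In CENPA it lies 18 bases before the start, with a CCAAT box in reverse at 130. MKI67 holds 2 CHRs, and the nearer one, at 29, overlaps a reverse CCAAT box. The table matched 28 of the 34 genes with 35 promoters of 300 bases, from 250 before to 50 after the start. Of these 35, 68.6% hold a CHR and 74.3% a CCAAT box, against 11.8% and 35.4% of 13135 promoters of genes tested and 16.4% and 34.6% of all 35116 promoters of that length. A match is a description of letters and not a measured site. The mitosis list was chosen by process, and that wave is known for these motifs. Its shares are therefore not a result of the time change.

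**Figure D3:**
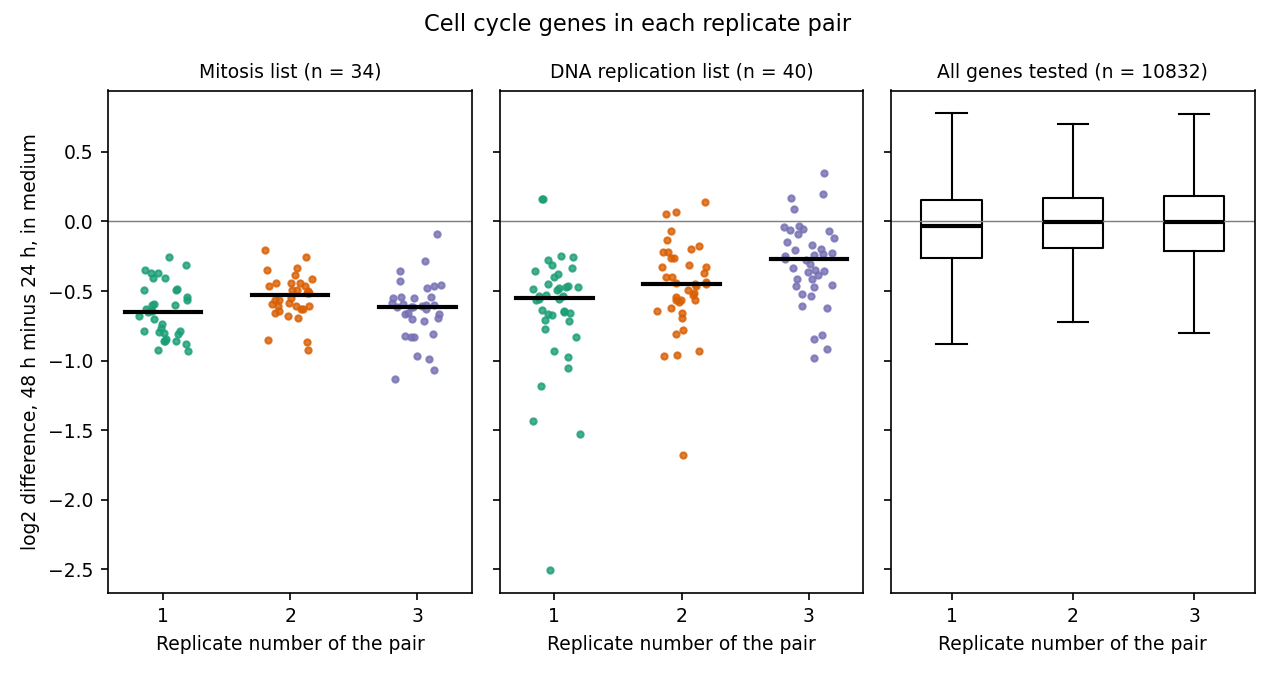
Log2 difference, 48 h minus 24 h in medium, by replicate pair; points are genes of the mitosis list (n = 34) and the DNA replication list (n = 40) and bars their medians, while the boxes at right give the median and quartiles of all 10832 genes, with whiskers to 1.5 interquartile ranges and no outliers drawn. Every mitosis gene lies below 0 in every pair, whereas a few replication genes lie above 0.

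Most DNA replication genes fell as well. Of 41 genes listed 40 were tested, and 31 of them were lower and none higher by the test. The list's median was -0.44, with pair medians of -0.55, -0.45 and -0.27. MCM10, which helps to activate the replicative helicase, was at 8.19, 8.41 and 8.54 and then at 6.66, 6.73 and 7.62, a 2.59-fold lower level (-1.38 ± 0.14). Replicates 1 and 2 dropped further than replicate 3. CDC6, a loader of the MCM helicase at origins, went from 9.15, 9.29 and 9.59 to 7.96, 8.33 and 8.61 (-1.04 ± 0.12). UHRF1, which carries DNA methylation through replication, fell by 0.86 ± 0.07, the helicase cofactor CDC45 by 0.91 ± 0.11, the primase partner POLA2 by 0.69 ± 0.08 and the origin subunit ORC6 by 0.62 ± 0.07. Members without a call, such as MCM2 at -0.10 ± 0.08 and E2F1 at -0.21 ± 0.10, lay on the same side, while CDT1 was at 0.21 ± 0.08 and PRIM1 at 0.14 ± 0.06 (these 4 were chosen after their values were seen). The count of falls was 13 without replicate 1, 20 without replicate 2 and 28 without replicate 3, and 7 without the replicate block.

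The promoters of 3 replication genes are shown for the other motif, chosen by the same ranking. Capitals mark the core of an E2F site on either strand. The core was searched as TTCCCGC, with the variants TTCGCGC and also TTGGCGC, and as the less common form TTGCCGC. The stretches lie at chr11:65261812-65261961 for POLA2, chr13:33817999-33818148 for RFC3 and chr18:657503-657652 for TYMS, all on the plus strand of GRCh38.p14.
POLA2: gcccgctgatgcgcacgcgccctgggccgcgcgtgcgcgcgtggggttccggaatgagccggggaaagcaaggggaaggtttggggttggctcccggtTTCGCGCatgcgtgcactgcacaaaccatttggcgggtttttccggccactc
RFC3: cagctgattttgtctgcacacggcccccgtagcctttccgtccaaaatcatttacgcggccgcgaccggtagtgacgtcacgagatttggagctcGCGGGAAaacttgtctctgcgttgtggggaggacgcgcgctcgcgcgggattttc
TYMS: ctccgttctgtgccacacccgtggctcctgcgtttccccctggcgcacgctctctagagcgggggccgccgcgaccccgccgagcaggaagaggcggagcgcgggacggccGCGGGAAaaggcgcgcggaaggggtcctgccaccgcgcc
The cores begin 52, 55 and 39 bases before the start. Of 45 promoters matched to 35 replication genes, 68.9% hold an E2F core, against 31.4% of the mitosis promoters and 19.3% of promoters of genes tested. A CHR is in 4.4% of the replication promoters. The replication list was likewise chosen by process, so its share of E2F cores is not a result of the time change either. Among promoters of all genes that fell, 15.1% hold a CHR and 23.4% an E2F core, and among those of genes that rose 10.8% and 16.7%. The genes that fell include those of both lists. Among 55 promoters of genes that fell at least 2-fold the shares were 9.1% and 14.5%. For 93 promoters of genes that rose at least 2-fold they were 8.6% and 7.5%.

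Some genes that hold cells in G1 or oppose MYC were higher at 48 h. In the list of G1 control 22 of 27 genes were tested. By the test 8 rose and 2 fell, and the median was 0.14. BTG1, an antiproliferative cofactor, rose by 0.65 ± 0.09, CDKN1C, the CDK inhibitor p57, by 0.55 ± 0.09 and MXI1, an antagonist of MYC, by 0.50 ± 0.07. MYC itself was at 12.44, 12.00 and 12.09 and then at 12.82, 12.46 and 12.47, a rise of 0.41 ± 0.05, so its direction was opposite to the cell cycle lists. CDKN1B, the inhibitor p27, was higher by 0.33 ± 0.07, a call lost without replicate 1 or 2. CCND1, which encodes cyclin D1, did not pass at -0.75 ± 0.25 (adjusted p = 0.0507), with one 24 h array at 9.18 and the others at 7.84 and 7.25. It passed under 8 alternatives, with adjusted p-values from 0.0156 without 24 h replicate 2 to 0.0494 with the mean of a gene's probe sets. CDKN1A, the inhibitor p21, did not pass at -0.18 ± 0.18. The count of rises was 5 without replicate 1 and 5 without replicate 2.

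Targets of p53 gave 2 rises (10.0%) and 4 falls (20.0%) among 20 tested, near the shares of all genes, 12.5% and 17.3%. Their median was 0.04, with 1 to 4 falls when arrays were left out. CCNG1, which encodes cyclin G1, rose by 0.46 ± 0.07. Genes of ribosome biogenesis were lower, with 11 falls, no rise and a median of -0.25 among 28 tested. TSR1 and NHP2, a ribosome maturation factor and a small nucleolar RNP protein, fell by 0.52 ± 0.08 and 0.34 ± 0.06. That count was 6 without 24 h replicate 3, 48 h replicate 3 or replicate 1, 7 without replicate 2 and 2 without replicate 3. Another probe set of TSR1 pointed the other way without a call. Of the histone list 6 genes were tested and 1 rose, H2BC12, whose call was lost in 3 of 9 fits with arrays left out (without 48 h replicate 1 and without number 1 or 2).

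Several genes of the contractile cytoskeleton fell. Of 26 tested members of the list of actin and of SRF and YAP targets 8 fell and none rose, with a median of -0.17, and 4 fell without replicate 3. MYL9, the regulatory myosin light chain, was at 11.04, 10.06 and 11.03 and then at 10.10, 9.11 and 10.21. Each pair dropped by a like amount, although the groups overlapped because replicate 2 was low throughout, and the difference was -0.91 ± 0.09. MYH9, the nonmuscle myosin heavy chain, fell by 0.64 ± 0.09, the tropomyosin gene TPM4 by 0.54 ± 0.06 and the actin crosslinker ACTN1 by 0.44 ± 0.05. Among keratins and other filaments 5 of 12 tested fell and none rose, with a median of -0.41, against 2 falls without replicate 1. VIM, which encodes vimentin, fell by 0.33 ± 0.05 and NES, which encodes nestin, by 0.58 ± 0.10. KRT18 and KRT8, the paired keratins of simple epithelium, were lower by 0.54 ± 0.10 and 0.49 ± 0.11, KRT18 without a call when replicate 1 was left out and KRT8 when replicate 1 or 2 was.

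Matrix genes did not share a direction. Of 42 tested 10 rose (23.8%, against 12.5% of all genes) and 8 fell (19.0%, against 17.3%), with a median of 0.00, whose sign turned under other scalings. Among basement membrane genes NID2, a nidogen, was at 8.71, 8.84 and 8.57 and then at 9.40, 9.63 and 9.54, a rise of 0.81 ± 0.10. LAMA1, a laminin chain, rose by 0.59 ± 0.09, as did the integrin gene ITGB8 by 0.59 ± 0.08, though another probe set of ITGB8 pointed the other way without a call. COL4A4 and COL4A5, partners of COL4A3 in one network and named here after their values were seen, were higher by 1.15 ± 0.23 and 0.60 ± 0.17. THBS1 and the integrin gene ITGA3 (-0.58 ± 0.08) fell. COL1A1, a chain of interstitial collagen I, and LUM, which encodes the proteoglycan lumican, were lower by 0.70 ± 0.16 and 0.38 ± 0.13 (limma, adjusted p = 0.01 and 0.0491, not examined with arrays left out), while the other expressed fibroblast markers DCN, which encodes decorin, and TWIST1, a transcription factor, did not pass at -0.32 ± 0.13 and 0.07 ± 0.13 (these 4 were named as fibroblast markers after their values were seen). The rises numbered 6 without replicate 1, and the falls 5 without replicate 1 and 5 without replicate 2. Of the fibroblast list 5 of 9 members with a probe set lay under 4 on all medium arrays, and its mean level was 5.82 ± 0.07 at 24 h and 5.66 ± 0.06 at 48 h (SD, n = 3; exact permutation p = 0.1). Its part in the matrix result was not tested.

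Several genes of matrix breakdown and plasminogen activation fell. Of 25 tested proteases and inhibitors 8 fell (32.0%, against 17.3% of all genes), 2 rose (8.0%, against 12.5%) and 15 did not pass. By sign alone 13 were lower and 12 higher, with a median of -0.08, and the falls numbered 5 without replicate 1. PLAT, tissue plasminogen activator, went from 6.61, 6.31 and 8.38 to 4.51, 5.13 and 7.06. Replicate 3 was high at both times, so the groups overlapped, and the difference was -1.54 ± 0.18. PLAUR, the urokinase receptor, fell by 0.89 ± 0.13, SERPINE2, an inhibitor of plasminogen activators, by 0.86 ± 0.10 and MMP7, which encodes matrilysin, by 0.86 ± 0.14. ADAMTS9 rose by 0.82 ± 0.09. In the list of TGF-beta ligands and targets 7 of 21 tested rose (33.3%, against 12.5% of all genes) and 7 fell (33.3%, against 17.3%), with a median of 0.06. TGFBI, a matrix protein named for its induction by TGF-beta, was at 10.99, 10.12 and 10.40 and then at 9.49, 9.15 and 9.42, a 2.22-fold fall (-1.15 ± 0.12). LTBP2, a latent TGF-beta binding protein, fell by 0.63 ± 0.10. BAMBI, a pseudoreceptor that dampens TGF-beta signals, rose by 0.52 ± 0.10. Both counts of the TGF-beta list ranged from 3 to 6 with arrays left out.

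Some genes of epithelial junctions and of tubular transport rose. Of 30 junction genes tested 7 rose (23.3%, against 12.5% of all genes), 3 fell (10.0%, against 17.3%) and 20 did not pass. By sign alone 17 were higher and 13 lower, with a median of 0.04, and 3 to 5 rose with arrays left out. OCLN, which encodes the tight junction protein occludin, was at 8.82, 8.94 and 8.97 and then at 9.24, 9.56 and 9.51, without overlap (0.53 ± 0.06). CDH16, the kidney-specific cadherin, rose by 0.67 ± 0.08 and CLDN3, a claudin, by 0.57 ± 0.07. CDH6, the cadherin of proximal tubule, fell by 0.39 ± 0.07 while another probe set of the gene rose. CDH1 and CDH2, which encode E- and N-cadherin, did not pass at 0.24 ± 0.15 and -0.02 ± 0.06.

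In the proximal tubule list 13 of 41 genes were tested, since most had no signal, and 6 rose and 1 fell with a median of 0.36. SLC4A4, the sodium bicarbonate cotransporter of the basolateral membrane, was at 11.36, 11.67 and 10.66 and then at 12.34, 12.62 and 11.82. Replicate 3 was low at both times, the groups did not overlap, and the level was 2.05-fold higher at 48 h (1.04 ± 0.07). SLC3A1, the heavy subunit of the cystine transporter, rose by 0.95 ± 0.12 and ENPEP, the brush border aminopeptidase A, by 0.81 ± 0.09. SLC22A4, an organic cation transporter, fell by 0.73 ± 0.10. Of other ion transport genes 7 of 21 tested rose and 3 fell, with a median of 0.11. FXYD2, the gamma subunit of the sodium pump, went from 12.94, 12.71 and 12.34 to 14.13, 13.79 and 13.41 (1.11 ± 0.09). CLCN5, the endosomal chloride exchanger lost in Dent disease, went from 7.87, 7.71 and 7.06 to 8.94, 8.83 and 8.11 (1.08 ± 0.08). In both genes each pair rose by about the same amount. The potassium channel genes KCNJ16 and KCNJ15 rose by 0.55 ± 0.06 and 0.50 ± 0.06, and KCNN4, a calcium-activated potassium channel, fell by 1.01 ± 0.11. The ion transport count of rises was 4 without replicate 3. Of kidney transcription factors 13 were tested, and TFCP2L1 and TFAP2A rose (15.4%, against 12.5% of all genes) while none fell. TFAP2A, at 0.26 ± 0.07, lost its call in 7 of the 9 fits with arrays left out, all but those without 24 h replicate 1 or number 1.

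The label of the cell type was checked against markers. Of 11 proximal tubule markers with a probe set 8 lay under 4 on all medium arrays, among them LRP2, CUBN, ANPEP, AQP1 and SLC34A1, while CDH6, DPP4 and PAX8 lay at 10.57 or more. Epithelial markers were well above background in 7 of 8 cases, with EPCAM at 12.99 to 13.34. All 7 markers of distal and collecting tubule, all 8 of endothelium and all 8 of immune cells lay under 4 on every medium array. Of 5 podocyte markers NPHS1 and WT1 lay under 4, while PTPRO lay at 12.8 to 13.4, SYNPO at 5.94 to 6.36 and PODXL at 5.01 to 5.70. Of the fibroblast markers DCN lay at 11.7 to 12.2, LUM at 9.62 to 10.3, COL1A1 at 7.86 to 8.89 and TWIST1 at 7.45 to 8.33. PTPRO, SYNPO and PODXL did not pass between the times, at 0.05 ± 0.12, -0.07 ± 0.08 and -0.23 ± 0.11. So epithelial genes and PAX8 gave strong signal, and the endocytic receptors and brush border transporters that define proximal tubule were near background.

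Of 30 tested genes of the EGF and ERK list the median difference was -0.10. The 6 members that fell (20.0%) and the 3 that rose (10.0%) are near the shares of all genes, 17.3% and 12.5%. FOSL1, an AP-1 subunit induced by ERK, was at 6.13, 4.75 and 6.87 and then at 3.65, 2.43 and 5.18. Each pair dropped, the groups overlapped, and the difference was -2.16 ± 0.23. HBEGF, a ligand of the EGF receptor, went from 6.80, 6.62 and 8.05 to 5.70, 5.92 and 6.53 (-1.11 ± 0.15). FOSL2, another AP-1 subunit, fell by 0.42 ± 0.07, while the feedback genes DUSP6 and SPRY1 rose, by 0.43 ± 0.06 and 1.64 ± 0.24. In the insulin, IGF and FOXO list 7 of 20 tested rose and 2 fell, with a median of 0.19, and 4 rose without replicate 1. IGF1R, the IGF-1 receptor, rose by 0.75 ± 0.11, BCL6 by 0.67 ± 0.10 and FOXO3 by 0.39 ± 0.06. TXNIP is a member of that list and fell. The glucocorticoid target TSC22D3, which encodes GILZ, was at 10.56, 10.43 and 9.43 and then at 11.86, 11.05 and 10.47 (0.99 ± 0.13). Of 13 tested glucocorticoid genes 2 rose (15.4%, against 12.5% of all genes) and 1 fell (7.7%, against 17.3%). No member fell in 6 of the 9 fits with arrays left out.

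Some genes of the circadian clock rose. Of 14 tested 6 rose (42.9%, against 12.5% of all genes), 1 fell and 7 did not pass, with a median of 0.32, and 3 to 6 rose with arrays left out. DBP, a clock-driven transcription factor, was at 5.70, 4.63 and 4.75 and then at 6.66, 5.68 and 5.89, with a rise in each pair (1.05 ± 0.09). Its relative HLF went from 7.91, 8.22 and 7.92 to 8.95, 8.96 and 8.89 (0.92 ± 0.12), and BHLHE41, a repressor of clock genes, rose by 0.74 ± 0.08. Both sampling times lie 24 h apart. Among Wnt, Notch and Hedgehog genes 2 of 20 tested rose (10.0%), 1 to 4 with arrays left out, and PTCH1, the Hedgehog receptor and target, went from 7.97, 7.30 and 7.35 to 8.84, 8.41 and 8.25 (0.96 ± 0.16). Of 26 tested cilium genes 5 rose and 1 fell, led by the dynein-2 subunits DYNC2H1 at 0.52 ± 0.08 and DYNC2LI1 at 0.59 ± 0.11, and 3 rose without replicate 1 or 3.

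Stress genes gave an uneven picture across replicates. Of 41 tested genes of the integrated stress response and amino acid metabolism 9 rose and 1 fell, with a median of 0.21. The pair medians were 0.48, 0.12 and 0.05, so replicate 1 was well above the others. DDIT3, which encodes the factor CHOP, was at 7.81, 8.20 and 7.88 and then at 10.90, 8.86 and 8.83 (1.57 ± 0.42, adjusted p = 0.0206). SLC7A11, the cystine importer, was higher by 1.13 ± 0.32, CTH, which makes cysteine, by 0.99 ± 0.23 and ATF4, the factor that drives the response, by 0.46 ± 0.10. Each of these 4 calls was lost in some of the 9 fits with arrays left out: DDIT3 without 24 h replicate 1 or number 2 or 3, SLC7A11 without 24 h replicate 1 or 2, 48 h replicate 1 or any number, CTH without number 1 or 3 and ATF4 without number 1 or 2. The list's count of rises was 1 without replicate 1, 2 without replicate 2 and 3 without replicate 3, and 4 without 24 h replicate 1 or 2 or 48 h replicate 1.

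In the unfolded protein response list 6 of 22 tested rose (27.3%, against 12.5% of all genes) and 4 fell (18.2%, near the 17.3% of all genes), with a median of -0.03. DNAJB9, a chaperone partner of BiP, was at 9.06, 9.10 and 8.71 and then at 9.86, 9.56 and 9.32 (0.62 ± 0.09), and HERPUD1, a gene of protein degradation at the endoplasmic reticulum, rose by 0.65 ± 0.12. Another probe set of HERPUD1 was at -0.09 without a call. SDF2L1, a chaperone cofactor, fell by 0.67 ± 0.11 and HSPA5, which encodes BiP itself, did not pass at -0.14 ± 0.10. Another probe set of HSPA5 was at 0.50, also without a call. The falls of this list numbered 2 without replicate 1 or 2. Of 16 tested heat shock genes 6 fell (37.5%, against 17.3% of all genes), 1 rose and 9 did not pass, with a median of -0.19. The falls numbered 1 without replicate 1, 1 without replicate 2 and 2 to 5 in the other fits with arrays left out. Of 23 tested NRF2 targets 5 fell (21.7%) and 2 rose (8.7%), near the shares of all genes, 17.3% and 12.5%. GCLM, a subunit of glutathione synthesis, fell by 0.51 ± 0.07. The NRF2 count of falls was 1 without replicate 1 and 2 without replicate 2. HMOX1, which encodes heme oxygenase 1, did not pass at -0.23 ± 0.08 (adjusted p = 0.0509). It passed under 4 alternatives (limma), with adjusted p-values from 0.0277 without 24 h replicate 2 to 0.048 with the mean of a gene's probe sets. Of 13 tested metallothionein and zinc genes 9 fell and 2 rose (median -0.25), and 2 to 8 fell with arrays left out. The metallothionein genes are near-identical copies, so their probe sets are not independent. The zinc exporter gene SLC30A2 rose by 0.61 ± 0.09 and the importer SLC39A10 fell by 0.44 ± 0.07.

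Among metabolic genes some of the lysosome rose. Of 31 tested lysosome and autophagy genes 10 rose (32.3%, against 12.5% of all genes), 2 fell (6.5%, against 17.3%) and 19 did not pass, with a median of 0.12, and 4 rose without replicate 3. CTSH, a cathepsin, was at 10.71, 10.56 and 10.28 and then at 11.78, 11.12 and 11.29 (0.88 ± 0.10). ATP6V1A, a subunit of the proton pump, rose by 0.59 ± 0.08, the peptidase TPP1 by 0.52 ± 0.09 and the sialidase NEU1 by 0.46 ± 0.07. In glycolysis 3 of 20 tested rose and 4 fell, near the shares of all genes, with 1 to 3 falls when arrays were left out. SLC2A1, the glucose transporter GLUT1, fell by 0.58 ± 0.09, while PFKFB3 and PFKM, which set and carry the phosphofructokinase step, rose by 0.39 ± 0.06 and 0.42 ± 0.07. Of the 6 tested glucose-sensing genes TXNIP and KLF10 fell, KLF10 from 9.10, 9.12 and 9.60 to 8.30, 8.46 and 8.81 (-0.75 ± 0.07). ARRDC3 and PDK2 were higher by 0.23 ± 0.08 and 0.26 ± 0.08, and ARRDC3 lost its call in all 9 fits with arrays left out and PDK2 in 8, all but the one without 48 h replicate 2.

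The hypoxia list held 8 rises and 4 falls among 24 tested, with a median of 0.15. BNIP3, a mitophagy receptor, rose by 0.44 ± 0.07 and P4HA2, a collagen prolyl hydroxylase, fell by 0.66 ± 0.10, so targets of one factor moved in opposite directions, and VEGFA did not pass at 0.32 ± 0.21. The count of rises was 4 without replicate 3 and that of falls 2 without replicate 2. Among cholesterol genes 6 of 22 tested rose and 4 fell, with a median of 0.14, and rises numbered 1 to 5 and falls 0 to 2 with arrays left out. TM7SF2, a sterol reductase, rose by 0.46 ± 0.07, and HMGCS1, which commits carbon to sterols, did not pass at 0.23 ± 0.12. HMGCS1 passed with the mean of a gene's probe sets (limma, adjusted p = 0.0427). ACSL1, which activates fatty acids, rose by 0.81 ± 0.08, and fatty acid oxidation genes as a list had 4 rises and 1 fall among 17 tested, with 2 rises without replicate 1. Fatty acid synthesis had 2 rises (16.7%) and 1 fall (8.3%) among 12 tested, counts that range over 0 to 2 and 0 to 1 with arrays left out. Respiratory chain genes gave 3 falls and no rise among 24 tested, and all 3 calls were lost in some of the fits with arrays left out. Of 20 tested genes of drug metabolism 3 rose and 4 fell, near the shares of all genes, and 1 to 5 rose with arrays left out. The sulfotransferase gene SULT1C2 rose by 0.91 ± 0.12, and GSTP1, a glutathione transferase, and NNMT, a nicotinamide methyltransferase, fell by 0.60 ± 0.09 and 0.76 ± 0.12.

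HAVCR1 and SPP1, markers of tubular injury, did not pass. HAVCR1, whose product KIM-1 marks injured tubules, was at 11.16, 11.36 and 11.25 and then at 11.12, 11.33 and 11.32, a difference of 0.00 ± 0.06. LCN2, which encodes NGAL, lay under 4 on all 6 arrays, and SPP1, which encodes osteopontin, did not pass at 0.13 ± 0.06 (adjusted p = 0.111). SPP1 passed with a robust prior (limma, adjusted p = 0.0148), and another of its probe sets pointed the other way without a call (-0.16). In the injury list 4 of 20 tested rose (20.0%, against 12.5% of all genes) and 4 fell (20.0%, against 17.3%), with a median of -0.02. KRT20, given above among the largest rises, is a member of this list and its largest rise (1.56). CLU, which encodes clusterin, was at 12.79, 12.24 and 12.23 and then at 13.51, 13.15 and 13.12 (0.84 ± 0.07). SOX9, a factor of tubular repair, went from 7.96, 7.65 and 7.97 to 7.09, 6.75 and 5.82 (-1.31 ± 0.25), and CD44, the hyaluronan receptor, from 10.46, 10.43 and 11.14 to 9.57, 9.94 and 10.23 (-0.76 ± 0.09). The falls of the list numbered 4 in each of the 9 fits with arrays left out, and the rises 2 to 5.

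Among NF-kB cytokine genes 6 of 23 tested fell (26.1%, against 17.3% of all genes) and 2 rose (8.7%, against 12.5%), with a median of -0.17. The falls numbered 2 to 6 with arrays left out. CXCL5, a chemokine for neutrophils, went from 8.22, 7.99 and 8.75 to 5.89, 7.06 and 7.82 (-1.40 ± 0.26) and IL32 fell by 0.96 ± 0.08. CCL2, the monocyte chemokine, rose in every pair, from 6.17, 7.06 and 5.61 to 6.96, 8.40 and 6.93 (1.15 ± 0.12), and IL1B rose by 1.39 ± 0.26. Of 14 tested complement and acute phase genes 5 rose and 1 fell, and 3 rose without replicate 2. CFB, complement factor B, rose by 1.14 ± 0.12, CD55, a complement inhibitor, by 0.49 ± 0.07, and FGB, a fibrinogen chain, fell by 0.70 ± 0.09. Of 30 tested interferon genes 6 rose (20.0%, against 12.5% of all genes) and 7 fell (23.3%, against 17.3%), and with arrays left out rises numbered 1 to 6 and falls 2 to 5. IFITM1 rose by 0.78 ± 0.13, and ISG15 and OAS3 fell by 0.57 ± 0.09 and 0.65 ± 0.10. Of 14 reference genes often used for scaling 1 rose and 5 fell, each by at most 0.40 in size, and 0 to 3 fell with arrays left out.

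**Figure D4:**
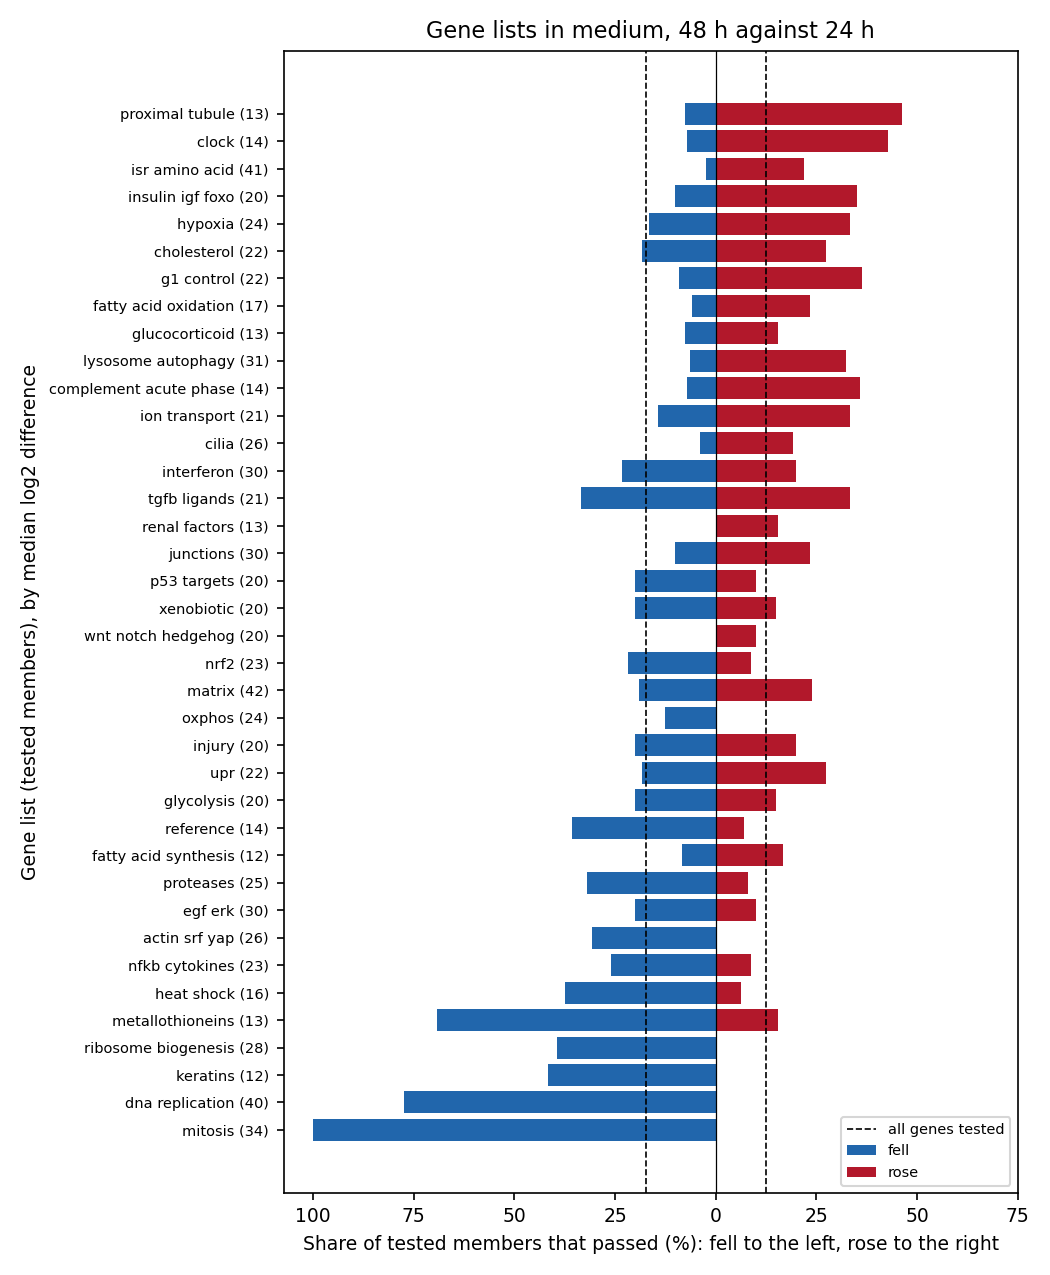
Share of the tested members of each gene list that fell (left, blue) or rose (right, red) in medium from 24 h to 48 h, for lists with 10 or more tested members, whose number is in brackets; dashed lines give the shares over all genes tested, 17.3% and 12.5%. Lists are in order of their median difference, from mitosis and DNA replication at the bottom to proximal tubule at the top, where 6 of 13 rose.

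The same contrast in the DMSO controls gave values close to those in medium. The DMSO and medium arrays are different arrays, but arrays of one number deviate together. Both contrasts also use the same estimate of each gene's spread, so the 2 contrasts and the overlap of their calls are not independent. In DMSO 3083 genes passed (28.5%), 1456 up (13.4%) and 1627 down (15%). Both contrasts called 2311 genes in one direction, which is 71.6% of the medium calls and 75.0% of the DMSO calls, and no gene was called in opposite directions. All 147 genes with a 2-fold change in medium had the same sign in DMSO. BLNK was at 3.53 in both, TXNIP at -3.37 in medium and -2.74 in DMSO, SLC6A13 at 2.09 and 1.89, INHBA at -2.46 and -1.92, and MCM10 at -1.38 and -1.21. The mitosis list had 34 falls in DMSO too, with a median of -0.54. The difference of the changes was tested for each gene, and with limma no gene passed, while 356 had an unadjusted p under 0.05, fewer than the 541.6 that chance gives. CYP2J2, a cytochrome P450, was lower by 1.35 in medium, where it lay under 4 at 48 h, and by 0.11 in DMSO, and that difference did not pass either.

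**Figure D5:**
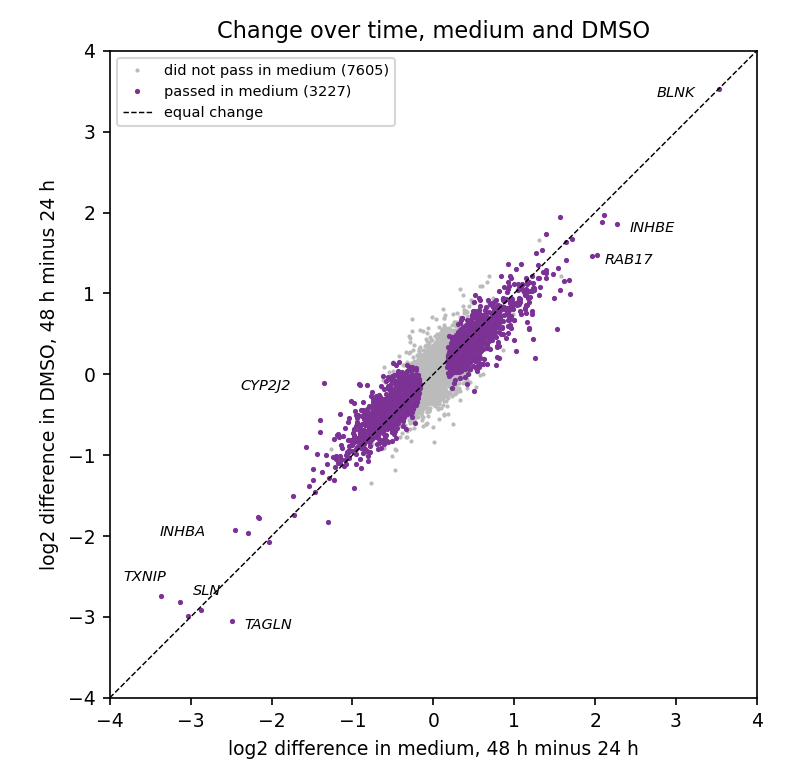
Log2 difference, 48 h minus 24 h, of each of 10832 genes in medium (horizontal) and in DMSO (vertical); purple points passed in medium, grey points did not, and the dashed line marks equal change. The points lie along the dashed line from TXNIP and SLN at lower left to BLNK at upper right, and CYP2J2 lies off it.

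With ethanol the time change differed from that in medium for 172 genes (1.59%), 152 higher and 20 lower with ethanol, in a fit of all 18 arrays without the replicate number. Of these 50 were also called in medium and 122 were not. BLNK, RAB17 and the mitosis genes named above were not among them. The endoplasmic reticulum genes SDF2L1 and HSPA5 were at -0.67 and -0.14 in medium and at 3.81 and 2.60 with ethanol. This count was 133 without replicate 1, 1 without replicate 2 and 30 without replicate 3, 236 without both ethanol arrays of replicate 3 alone, and 508 with the replicate number in the fit.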

How the data were processed

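The deposited values are log2 expression that the authors made with GCRMA, per the submitters' processing notes, which give no version. GCRMA corrects background by probe GC content, equalizes array distributions and summarises probe sets, so a shift of all genes cannot be seen. The log2 scale was read from the values. The table held 54675 probe sets; those of 1 gene above 4 on at least 3 of 18 arrays were kept (19730), with the highest-mean probe set for each of 10832 genes. Genes were named through the platform table and RefSeq.

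Differences were tested two-sided with limma 3.58.1 in R 4.3.3 (lmFit, eBayes), with Benjamini-Hochberg adjustment over all genes. The 12 medium and DMSO arrays entered 1 fit with group means and the replicate number as a block (6 residual and 3.16 prior degrees of freedom). The numbers pair these arrays. Deviations from group means correlated across genes at 0.526 to 0.731 between arrays of one number and at -0.475 to -0.174 between numbers. The deviations in a group sum to 0, so the negative values follow from the positive ones and are not separate evidence of pairing. The ethanol difference used 18 arrays without the block, since the correlation of same-numbered arrays was only -0.083 to 0.345 between ethanol and medium at 48 h. Between those groups, ethanol replicate 1 correlated with medium replicate 2 at 0.296, and ethanol replicate 2 with medium replicate 1 at 0.250. Whether these numbers were exchanged was not tested. Errors beside differences are standard errors, and beside means SDs. The fit with the block takes residuals of medium and DMSO arrays of one number and time as independent. Deviations of such arrays correlated at 0.608 to 0.731, against 0.526 to 0.602 between medium arrays of one number at 24 h and 48 h. A deviation shared by arrays of one number at one time is not modelled. Standard errors and p-values of the time change may therefore be too small. P-values of the fit with the block measure the spread left within replicate numbers, as labelled, once differences shared by arrays of one number are removed. Those of fits without the block measure the spread between biological replicates as labelled. Fits were tested on simulated data.

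The genes named are the 15 largest rises and falls among genes that passed without overlap and in all 3 pairs, up to 6 members a list by smallest p, a set of readouts, and those with the smallest interaction p-values; others are marked. The comparison, the arrays of the main fit and the lists were chosen with earlier results of these data known. In those results the spread was alike in medium and DMSO and larger with ethanol, whose arrays were left out of that fit. Alternatives covered the block, the arrays fitted, scaling, filters, probe set choice, array weights and leaving out arrays. Arrays have no read depth, and raw intensities were not used here.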

Additional observations from a re-analysis of the deposited data

Results flagged for a closer look

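The time change was set against that in the ethanol controls, in a fit of all 18 arrays. It differed for 172 genes by a test of the difference itself (limma, adjusted p under 0.05; 1497 genes had an unadjusted p under 0.05). Values below are the change with ethanol minus the change in medium, on the log2 scale.

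The named genes were picked in part by their smallest interaction p-values, HSPA5, XBP1 and HERPUD1 among them. How many of them belong to one list is therefore not a result. Several are genes of the unfolded protein response. The differences were 4.48 for SDF2L1, 2.89 for HYOU1, 2.74 for HSPA5, 2.57 for DNAJB9, 2.51 for HERPUD1, 1.92 for DNAJB11 and 1.68 for XBP1. In medium SDF2L1 had fallen by 0.67 and DNAJB9 had risen by 0.62. Genes of the integrated stress response and amino acid supply were at 4.19 for SLC7A11, 4.14 for ALDH1L2, 3.44 for NUPR1, 3.30 for DDIT3 and 2.16 for CTH. The sterol genes INSIG1 and HMGCS1 were at -1.49 and -1.47. FBXO16 was at 2.74, VEGFA at 1.39, KLF5 at 1.38, GRB10 at 0.87 and ATP5MC1, a subunit of ATP synthase, at -0.97. The count of such genes was 1 without replicate 2, 30 without replicate 3, 133 without replicate 1 and 236 without both ethanol arrays of replicate 3 alone.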

How the results depend on the processing

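The counts of genes that passed depended on the replicate block. Without the replicate block 148 passed (56 higher, 92 lower). With only the 6 medium arrays 1925 passed with the replicate block (837 higher, 1088 lower; 1852 shared with the 3227) and 1 without it (1 higher, 0 lower; 2111 at an unadjusted p under 0.05 with limma). In all 18 arrays 438 passed with the block (165 higher, 273 lower) and 0 without it (0 higher, 0 lower; 1205 unadjusted). Leaving out arrays gave 1375 to 2625 genes (645 to 1145 higher, 730 to 1495 lower). Testing every probe set by itself gave 4991 (2122 higher, 2869 lower), and a 2-fold minimum 147 (85 higher, 62 lower). Quantile normalization gave 1536 higher and 1691 lower, median centring 1554 and 1703, and the count in all stayed within 1.5 times under these, other filters, array weights and a robust prior. Under the mean of a gene's probe sets the transketolase gene TKT was at -0.085, against 0.21. DMSO calls numbered 114 without the replicate block and 930 to 2034 with arrays left out. The ethanol difference had 508 genes with the replicate block, 1 to 133 with a replicate number left out and 236 without both ethanol replicate 3 arrays. The cause of these shifts was not tested. The number of arrays limits the precision, and probe sets under 4 carry little signal.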

Other observations

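Beyond the lists, several genes of kidney epithelium rose by at least 2-fold, and all were chosen after their values were seen. Kidney genes outside the lists that fell or did not pass were not counted. GPX3, the secreted glutathione peroxidase made by proximal tubules, was at 12.50, 12.28 and 11.94 at 24 h and at 13.67, 13.48 and 13.24 at 48 h (1.23 ± 0.07, SE). Each pair moved by about the same amount. KL, which encodes Klotho, went from 7.78, 8.03 and 7.59 to 9.08, 9.06 and 8.49 (1.08 ± 0.14), and DDC, which makes dopamine in the tubule, from 5.48, 5.81 and 5.42 to 6.77, 7.02 and 6.40 (1.16 ± 0.12). SLC27A2, a fatty acid transporter, was higher by 1.19 ± 0.13. The ectonucleotidase genes ENPP1 and ENPP3 were higher by 1.31 ± 0.08 and 1.49 ± 0.27. In all of these the 48 h arrays lay above the 24 h arrays, and the change in DMSO was also positive, from 0.94 for ENPP3 to 1.36 for KL.

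Among falls outside the lists FABP5, a fatty acid binding protein of epidermal type, went from 10.25, 9.90 and 10.75 to 8.76, 8.80 and 9.37 (-1.32 ± 0.08). S100A2, a calcium-binding protein of squamous and basal cells, went from 11.92, 11.95 and 11.83 to 10.20, 10.57 and 11.07 (-1.29 ± 0.19). Promoters of the integrated stress response list held the ATF4 core TGATGCA in 9 of 52 cases (17.3%), against 1.5% of promoters of genes tested, though the list was chosen for targets of that factor.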
